A study of Mus musculus with 6 samples.

Results

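The 10 genes described here encode osteocrin (Ostn), the peptide that the natriuretic peptide clearance receptor binds, together with C-type natriuretic peptide (Nppc), the natriuretic peptide receptors (Npr1, Npr2, Npr3) and the nitric oxide to cGMP route (Nos1, Gucy1a1, Gucy1b1, Prkg1, Pde5a). They were taken by symbol from a table of 48709 gene identifiers, and all 10 were among the 16699 genes with enough counts to be tested. The genes were chosen by their place in one pathway and with their counts in knock-in and wild-type libraries already known, Ostn being among the genes with the largest decrease. The differences of the 10 genes between genotypes are therefore given as a description, and no p-value is printed for them. Where any of them is said to have passed a threshold or to be called, in the main fit or another, this is also a description. The choice of genes had already used the same values, so passing is not an independent test of them.

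The RNA came from the cerebellum of C57BL/6J mice aged 40 weeks. One group, KI, had 3 samples from knock-in mice of the SCA7 model, in which one allele carries 140 glutamine codons and the other 5, and the other group, WT, had 3 wild-type samples. SCA7, spinocerebellar ataxia type 7, is caused by expansion of the glutamine-coding repeat of ataxin-7. Messenger RNA was sequenced from whole cerebellum, so fewer cells of a type and less RNA per cell cannot be told apart. The labels do not say that the samples came from separate animals, so the spread between them may in part be technical. KI libraries held between 34630391 and 39826478 counts and WT libraries between 39528292 and 49127673. CPM is the usual library-scaled count, here with TMM scaling.

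Natriuretic peptides act through membrane receptors that are themselves guanylyl cyclases, and nitric oxide acts through a soluble guanylyl cyclase inside the cell. Both routes make cGMP, which switches on cGMP-dependent protein kinase and is broken down by phosphodiesterases. In the cerebellum the neuronal nitric oxide synthase is known from granule neurons and molecular layer interneurons. The soluble cyclase and the type I kinase are known from Purkinje cells, where they take part in long-term depression at the parallel fibre synapse.

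In KI cerebellum 4 of the 10 genes, Ostn, Prkg1, Pde5a and Npr1, lay below every WT library and passed the edgeR threshold over all genes (adjusted p of 0.05 or less). Another, Npr2, lay slightly above every WT library without passing it, and the groups overlapped for the other 5. Of all genes tested 1.28% passed as lower in KI, 0.629% as higher and 1.9% in either direction. The groups did not overlap in 23.8% of tested genes, 11.5% lower and 12.3% higher in KI. Because the 10 genes were chosen with this comparison known, their counts are not read against those shares. The median log2 fold change, KI over WT, was -0.45 over the 10 genes and 0.01 over all genes tested.

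**Figure D1:**
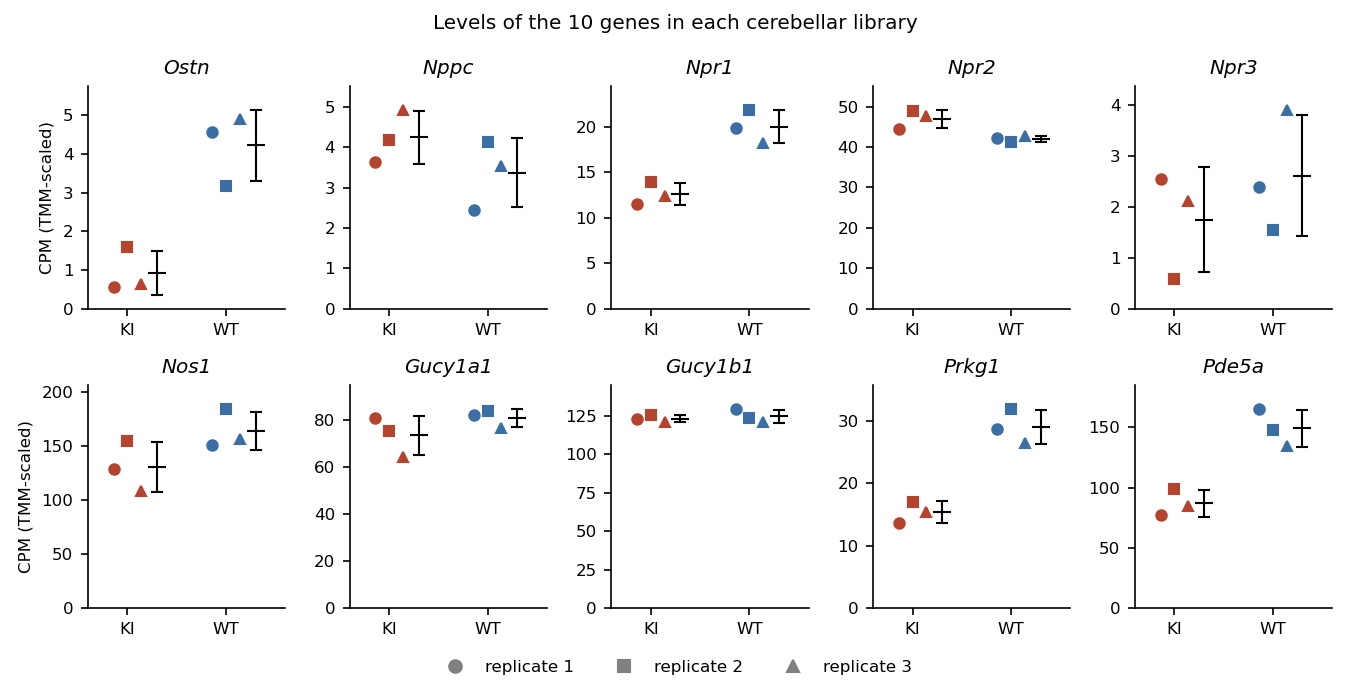
CPM of the 10 genes in each library, with KI at the left and WT at the right of each panel. Symbol shapes mark the replicate number, and the bars give the mean and SD over 3 libraries. Ostn, Npr1, Prkg1 and Pde5a are lower in all KI libraries than in any WT library, with KI replicate 2 the highest of the KI libraries in each.

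Among the peptides, Ostn (ENSMUSG00000052276, chromosome 16, 27307489 to 27351212, plus strand, mm10) encodes a small secreted protein that binds Npr3 and so spares natriuretic peptides from clearance. In mice it is known from bone and skeletal muscle, and in primates also from activity-induced expression in cortical neurons. Ostn had 0.568, 1.58 and 0.640 CPM in KI replicates 1, 2 and 3 and 4.57, 3.17 and 4.91 CPM in WT replicates 1, 2 and 3. These levels rest on 21, 63 and 23 counts in KI and on 223, 133 and 190 counts in WT. All KI libraries were low, and KI replicate 2 and WT replicate 2 lay nearest each other. The log2 fold change was -2.16 ± 0.35 (SE), from 0.930 ± 0.565 CPM in KI and 4.22 ± 0.919 CPM in WT (mean ± SD, n = 3 each). It is the largest change of the set on this scale and the one with the fewest counts among those that passed. An antisense gene, Gm32312, shares 12.9% of the exon bases of Ostn and is not among the gene identifiers counted, so its level is unknown. Whether the counting used strand is not given in the sources used here, and without it the reads of such a pair cannot be told apart.

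Nppc (chromosome 1, 86666291 to 86670571, minus strand) encodes C-type natriuretic peptide, the ligand of Npr2. Its level was 3.63, 4.19 and 4.93 CPM in KI and 2.46, 4.13 and 3.54 CPM in WT. The groups overlapped, since WT replicate 2 exceeded KI replicate 1. The log2 fold change was 0.34 ± 0.21 (SE). Within each library, Ostn per Nppc, as a ratio of levels per exon length, was 0.115, 0.276 and 0.0952 in KI and 1.36, 0.563 and 1.02 in WT. WT replicates 1 and 3 thus had more Ostn than Nppc per length, and the other 4 libraries had less.

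Of the 3 receptors, Npr1 is the guanylyl cyclase for atrial and B-type natriuretic peptides, Npr2 the one for C-type natriuretic peptide, and Npr3 a receptor without a cyclase domain that takes peptides up for breakdown. Npr1 (chromosome 3, 90450591 to 90465866, minus strand) had 11.5, 13.96 and 12.4 CPM in KI and 19.9, 21.9 and 18.3 CPM in WT. The groups were well apart, and the log2 fold change was -0.66 ± 0.11 (SE). Npr2 (chromosome 4, 43631935 to 43651244, plus strand) had 44.5, 48.9 and 47.6 CPM in KI and 42.2, 41.2 and 42.8 CPM in WT. Its KI libraries were all higher, by a narrow margin, at a log2 fold change of 0.16 ± 0.08 (SE). The antisense gene Gm16048 shares 11.7% of the exon bases of Npr1 and had at most 10 counts in a library.

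Npr3 (chromosome 15, 11839896 to 11907287, minus strand), the receptor of osteocrin, had 2.54, 0.577 and 2.12 CPM in KI and 2.38, 1.55 and 3.90 CPM in WT. Replicate 2 was the lowest library of both groups, and the groups overlapped. The log2 fold change of -0.58 ± 0.46 (SE) was close in size to its own error. Markers of the choroid plexus, the epithelium that makes cerebrospinal fluid, varied in the same libraries. Their summed level was 274.5, 24.9 and 1311 CPM in KI and 525.5, 503.4 and 1897 CPM in WT, lowest in KI replicate 2 and highest in WT replicate 3, as for Npr3. In KI replicate 1, though, that sum lay below every WT library, while Npr3 lay above WT replicates 1 and 2. The summed level of 6 meningeal markers was 89.3, 69.5 and 85.5 CPM in KI and 79.5, 70.4 and 90.6 CPM in WT. It was also lowest in KI replicate 2 and highest in WT replicate 3. None of the 7 choroid plexus or 6 meningeal markers was called. The part of either tissue in the Npr3 level was not tested.

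Seen as shares of the 3 receptor transcripts per exon length, Npr1 made up 19.7%, 21.7% and 19.9% in KI and 31.0%, 33.7% and 28.5% in WT. Npr2 made up 78.1%, 77.8% and 78.3% in KI and 67.2%, 65.1% and 68.4% in WT. Npr2 was thus the main receptor transcript in every library, with a larger share in every KI library, and Npr3 stayed at or below 3.10%. Shares within a library do not depend on the scaling between libraries, and no test was made of them because they hold the same differences as above.

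On the nitric oxide side, Nos1 (chromosome 5, 117781032 to 117958840, plus strand), the neuronal synthase, had 129, 155 and 109 CPM in KI and 151, 184 and 157 CPM in WT. KI replicate 2 exceeded WT replicate 1, so the groups overlapped, and the log2 fold change was -0.32 ± 0.13 (SE). Gucy1a1 (chromosome 3, 82092427 to 82145789, minus strand) and Gucy1b1 (chromosome 3, 82032006 to 82074689, minus strand) encode the alpha 1 and beta 1 subunits that pair as the soluble cyclase, and they lie next to each other. Gucy1a1 had 81.0, 75.5 and 64.4 CPM in KI and 82.2, 84.1 and 76.8 CPM in WT, a log2 fold change of -0.14 ± 0.10 (SE).

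Gucy1b1 had 123, 126 and 121 CPM in KI and 129, 124 and 121 CPM in WT. The 6 libraries thus lay close together, at a log2 fold change of -0.02 ± 0.07 (SE). It kept its sign in 12 of 16 alternative fits and was highest, at 0.05, with scaling by library size alone. Gucy1a1 per Gucy1b1, as a ratio of levels per length, was 0.372, 0.339 and 0.300 in KI and 0.358, 0.384 and 0.357 in WT. The proportion of the subunit transcripts therefore overlapped between the groups.

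Of the genes that act on or through cGMP, the set holds a kinase and a phosphodiesterase. Prkg1 (chromosome 19, 30564489 to 31765033, minus strand), the type I cGMP-dependent kinase, had 13.6, 17.1 and 15.5 CPM in KI and 28.7, 31.9 and 26.5 CPM in WT. The highest KI library, replicate 2, was far below the lowest WT library, replicate 3, and the log2 fold change was -0.92 ± 0.11 (SE). Pde5a (chromosome 3, 122728947 to 122859374, plus strand), the cGMP-specific phosphodiesterase that sildenafil blocks, had 77.4, 99.1 and 84.4 CPM in KI and 165, 148 and 135 CPM in WT. Again the groups were apart, at a log2 fold change of -0.78 ± 0.11 (SE).

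Set against the beta 1 subunit in the same library, Prkg1 per Gucy1b1 was 0.0402, 0.0491 and 0.0463 in KI and 0.0803, 0.0935 and 0.0790 in WT. Pde5a per Gucy1b1 was 0.252, 0.315 and 0.278 in KI and 0.510, 0.479 and 0.444 in WT. Neither ratio overlapped between the groups. Gucy1b1 varied little, so these ratios hold the same differences as the CPM above and are not a further result. Pde5a per Prkg1 did overlap, at 6.27, 6.42 and 6.02 in KI and 6.36, 5.12 and 5.62 in WT. The kinase and the phosphodiesterase thus were lower in about the same proportion, beside log2 fold changes of -0.14 and -0.02 for the cyclase subunits.

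**Figure D2:**
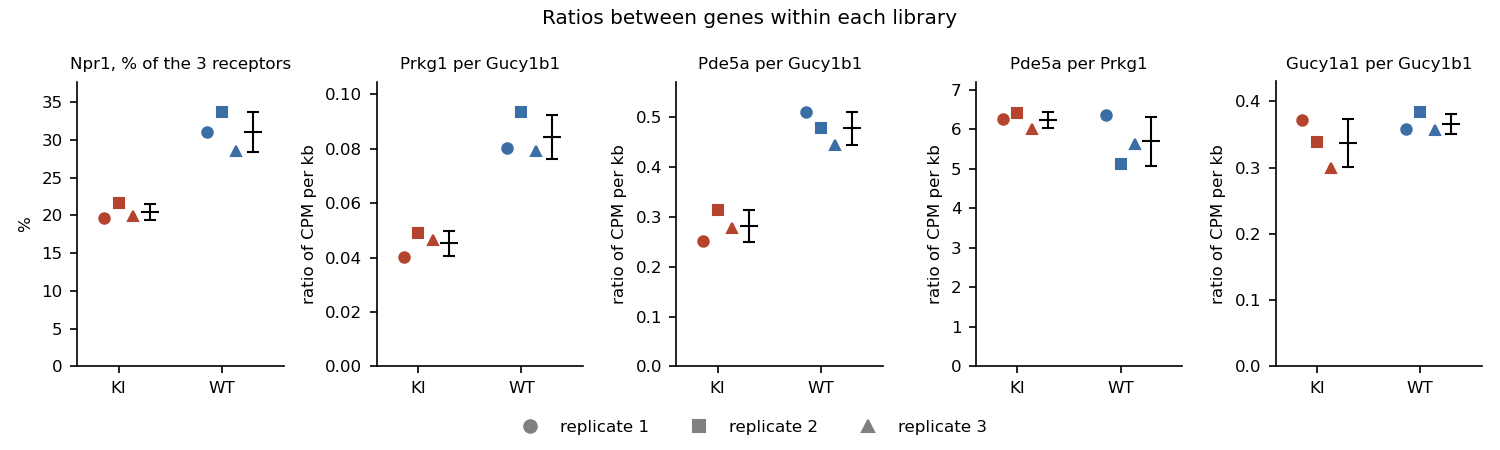
Ratios between genes within each library, from CPM per kilobase of exon, with KI at the left and WT at the right of each panel; the first panel is the percent of Npr1, Npr2 and Npr3 together that was Npr1. Symbol shapes mark the replicate number and bars are the mean and SD over 3 libraries. The Npr1 share, Prkg1 per Gucy1b1 and Pde5a per Gucy1b1 are lower in all KI libraries, and Pde5a per Prkg1 and Gucy1a1 per Gucy1b1 overlap.

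Promoters are shown for Npr1 and for both annotated starts of Prkg1, since these are members lower in every KI library whose RefSeq start is also a GENCODE transcript start. The sequences are the 250 bases before the start on the gene's strand, from RefSeq on GRCm38.p6, and 9 of the 10 genes had an entry. Capitals mark the GC box GGGCGG, a site of Sp1-type factors, on either strand. The Npr1 window is chr3:90465867-90466116, minus strand, and the Prkg1 windows are chr19:31765034-31765283 and chr19:31664371-31664620, minus strand.
Npr1: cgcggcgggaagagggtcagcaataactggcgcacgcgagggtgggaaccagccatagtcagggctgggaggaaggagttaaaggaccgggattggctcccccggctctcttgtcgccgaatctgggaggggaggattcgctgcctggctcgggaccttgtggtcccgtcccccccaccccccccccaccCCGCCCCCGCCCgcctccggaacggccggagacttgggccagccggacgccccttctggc
Prkg1, first start: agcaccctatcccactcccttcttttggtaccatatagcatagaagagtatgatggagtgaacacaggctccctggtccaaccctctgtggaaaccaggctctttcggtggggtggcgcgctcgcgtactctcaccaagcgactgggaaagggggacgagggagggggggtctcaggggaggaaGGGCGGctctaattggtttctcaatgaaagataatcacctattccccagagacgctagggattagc
Prkg1, second start: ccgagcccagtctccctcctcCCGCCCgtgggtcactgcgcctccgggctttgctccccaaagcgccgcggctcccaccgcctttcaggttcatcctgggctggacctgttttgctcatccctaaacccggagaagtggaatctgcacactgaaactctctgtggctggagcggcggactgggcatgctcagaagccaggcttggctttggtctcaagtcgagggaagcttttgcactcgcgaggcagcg
Npr1 held 2 GC boxes side by side, at 60 to 55 and 54 to 49 bases before the start. Each Prkg1 window held 1, at 66 to 61 and at 229 to 224 bases before its start. Of 32851 RefSeq promoter windows of the same length, 32.7% held at least 1 GC box. None of the 3 windows held the letters TATAAA (12.4% of all windows), TGACGTCA of the cAMP response element (1.55%), TAGGTCA of the ROR element (2.23%) or the MEF2 site (3.2%), each searched on both strands. A match is only a match of letters, and absence says only that these letters are not in the window.

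Compared per kilobase of exon, where levels of different genes can be set side by side, Gucy1b1 was the most abundant of the 10 in both groups, at 31.4 ± 0.587 CPM per kb in KI and 31.8 ± 1.08 in WT (mean ± SD, n = 3 each). In KI it was followed by Nos1, Gucy1a1, Npr2 and Pde5a at 11.7, 10.6, 10.1 and 8.85 CPM per kb, neighbours whose ranges overlapped. In WT the next was Pde5a at 15.2 CPM per kb, overlapping with Nos1 at 14.7, and then Gucy1a1 at 11.6 and Npr2 at 9.02, which did not overlap with their neighbours in the order. Lower down came, in KI, Nppc at 4.08, Npr1 at 2.64, Prkg1 at 1.42 and Ostn at 0.654 CPM per kb, with no overlap between neighbours. The corresponding WT levels were 3.24 for Nppc, 4.18 for Npr1, 2.67 for Prkg1 and 2.96 for Ostn, whose ranges overlapped from one neighbour to the next. Npr3 was last, at 0.186 CPM per kb in KI and 0.278 in WT. Exon length was the union over all annotated transcripts, which understates genes with many alternative exons.

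**Figure D3:**
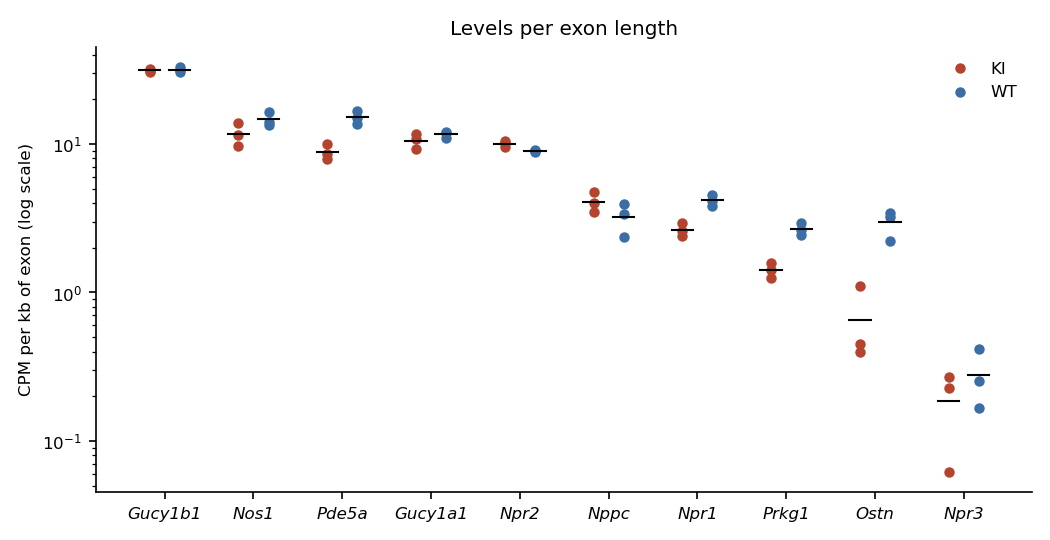
CPM per kilobase of exon on a log axis for the 10 genes, ordered by the mean of both groups, KI left of WT for each gene. Points are libraries and lines the group means. Gucy1b1 is highest at about the same level in both groups, and Pde5a lies below Nos1 in KI and level with it in WT.

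Other genes of the pathway were listed by textbook role, 58 in all. Of these 42 could be tested, and 4 were lower in KI and 1 was higher by the same threshold. This is 11.9% of the tested genes on the list, beside 1.9% of all genes tested, with a median log2 fold change of -0.03 beside 0.01. The list was drawn up with earlier results of these data known, among them those of Kcnma1 and Itpr1. Its share is therefore a description and is not read against that of all genes. The adjusted p-values printed below for genes of the list are likewise not independent tests. The 16 genes that could not be tested had at most 11 counts in any library. Among them were Nppa and Nppb, which encode the atrial and B-type peptides that activate Npr1, at no more than 2 and 5 counts.

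In the peptide and processing group Corin, the serine protease that activates pro-atrial natriuretic peptide, fell to 9.45 ± 1.27 CPM in KI, against 14.7 ± 1.495 CPM in WT (SD, n = 3 each). The log2 fold change was -0.63 ± 0.13 (SE) with an edgeR adjusted p of 0.0398. Furin, another convertase, had 49.9 and 42.7 CPM in KI and WT and was not called. Neither gene of peptide breakdown was called. Ide, insulin-degrading enzyme, which also cleaves natriuretic peptides, had 67.1, 114 and 65.2 CPM in KI and 125, 127 and 113 CPM in WT. KI replicate 2 lay within the WT range of Ide, and the edgeR adjusted p was 0.149.

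Among 10 genes of nitric oxide synthesis and arginine supply, Asl, argininosuccinate lyase of the arginine-recycling route, rose to 26.9 ± 1.34 CPM in KI, against 18.8 ± 1.95 CPM in WT (SD, n = 3 each). The log2 fold change was 0.52 ± 0.10 (SE) and the edgeR adjusted p 0.0312. The other 9 were not called. The endothelial synthase Nos3 had 13.5 and 10.2 CPM in KI and WT, and the inducible synthase Nos2 0.674 and 0.863 CPM. The enzymes that degrade the synthase inhibitor dimethylarginine lay on opposite sides, Ddah1 at 113 CPM in KI and 138 in WT and Ddah2 at 36.3 CPM in KI and 26.2 in WT (edgeR adjusted p 0.107 and 0.0954). The libraries of the genotypes did not overlap for either gene.

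Of 9 substrates and partners of the kinase, Kcnma1 and Itpr1 fell. Kcnma1, the large-conductance calcium-activated potassium channel, fell to 81.3 ± 13.5 CPM in KI, against 139 ± 15.2 CPM in WT, a log2 fold change of -0.77 ± 0.12 (edgeR adjusted p 0.0178). It lies on chromosome 14, 9.18 Mb from Atxn7, the gene that carries the knock-in. Itpr1, the IP3 receptor, fell to 3434 ± 595 CPM in KI, against 5342 ± 481 CPM in WT, a log2 fold change of -0.64 ± 0.11 (edgeR adjusted p 0.0239). Ppp1r17, the Purkinje cell protein called G-substrate for its phosphorylation by this kinase, had 316, 347 and 385 CPM in KI and 526, 415 and 419 CPM in WT. Its KI libraries all lay below WT, and the edgeR adjusted p was 0.115. On the other side, Ppp1r14a, an inhibitor of myosin phosphatase, had 11.9, 11.3 and 16.3 CPM in KI and 9.30, 10.3 and 11.1 CPM in WT (edgeR adjusted p 0.239). Rgs2, a regulator of G protein signalling, had 24.6, 22.6 and 21.97 CPM in KI and 21.7, 19.4 and 21.1 CPM in WT (edgeR adjusted p 0.418). Their KI libraries all lay above WT. Over the 9 genes the groups did not overlap in 3 that were lower and 2 that were higher. Over the 42 pathway genes tested, 8 were lower and 9 higher without overlap. The shares over all genes tested were 11.5% lower and 12.3% higher. Irag1, the protein that links the kinase to the IP3 receptor, had 2.94 CPM in both groups.

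Of 15 phosphodiesterase genes other than Pde5a, 11 were tested and 1 was called. Pde9a, which is specific for cGMP and has a high affinity for it, fell to 60.5 ± 6.00 CPM in KI, against 85.1 ± 2.38 CPM in WT (log2 fold change -0.49 ± 0.09, edgeR adjusted p 0.0242). Summed per exon length over 10 catalytic phosphodiesterase genes, Pde5a made up 15.1%, 18.6% and 15.2% in KI and 23.9%, 22.3% and 21.2% in WT. Pde9a made up 29.0%, 33.3% and 32.0% in KI and 35.3%, 34.7% and 37.0% in WT. Both shares were lower in every KI library. The sum includes Pde2a at only 13 to 21 counts, and 64.3% of its exon bases are shared on the same strand with the gene model Gm45837, which had 0 counts, so the level of Pde2a and with it these shares are uncertain. Pde1b had 59.2, 35.1 and 51.4 CPM in KI and 31.4, 37.2 and 39.6 CPM in WT, with KI replicate 2 within the WT range.

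The remaining roles held no call. Gucy1a2, the alpha 2 subunit of the soluble cyclase, had 10.6 CPM in KI and 13.1 CPM in WT (edgeR adjusted p 0.278). Gucy2e, a membrane cyclase of photoreceptors, had 5.76 and 6.08 CPM in KI and WT. Prkg2, the type II cGMP-dependent kinase, had 3.87, 1.05 and 1.95 CPM in KI and 1.29, 2.65 and 2.38 CPM in WT, so that its libraries overlapped widely. Abcc5, an exporter of cyclic nucleotides, had 112 and 99.2 CPM in KI and WT (edgeR adjusted p 0.288).

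**Figure D4:**
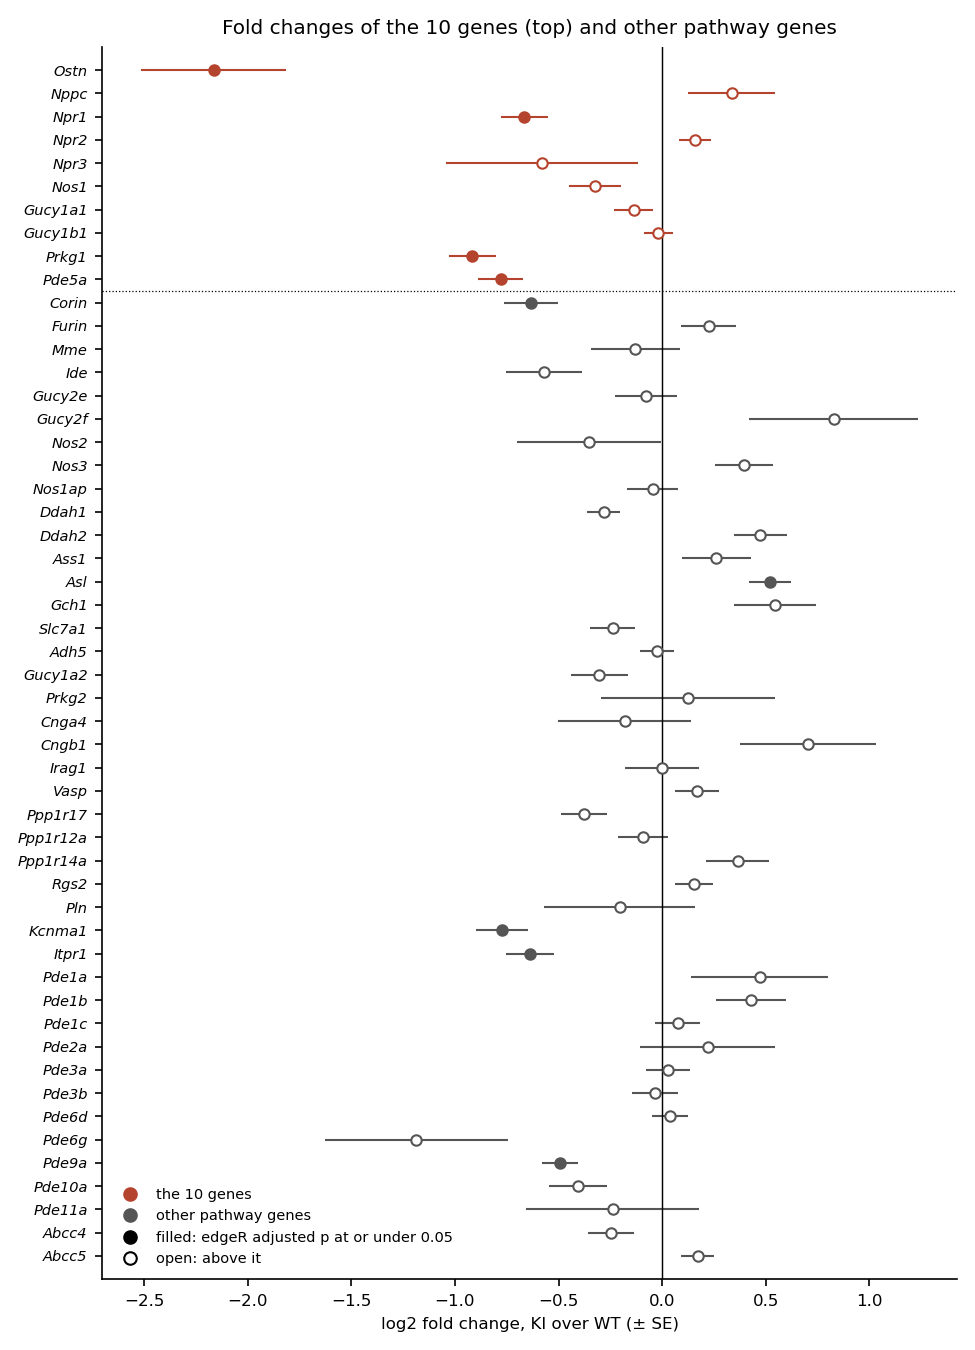
Log2 fold changes, KI over WT, with SE, of the 10 genes (above the dotted line) and of the 42 other pathway genes tested, in the order of their roles. Filled points have an edgeR adjusted p at or under 0.05. For the 10 genes this is a description and not an independent test. The pathway list was also drawn up with earlier results of these data known. Ostn is lowest at -2.16, and Asl is the only filled point above 0.

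The genes whose log2 CPM over the 6 libraries was most like that of Ostn, among 13138 named genes with a mean of at least 1 CPM, were Pm20d1, Derl1, Impg2, Corin and Sgpp2, with Pearson r between 0.990 and 0.997. Since the libraries fall into 2 genotypes, the correlation is given as a description of that split and of these libraries. Their fold changes were much smaller. Pm20d1 had 4.47, 5.87 and 4.79 CPM in KI and 7.79, 6.85 and 7.90 CPM in WT. Derl1, a gene of endoplasmic reticulum protein degradation, differed by only -0.06 ± 0.07 on the log2 scale (135 CPM in KI and 141 CPM in WT). Corin, on the pathway list, is described above.

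Markers of the cell types in the tissue differed between lists. The lists were chosen with earlier results of these data known, so the counts called are a description. They are not read against the shares over all genes tested, 1.28% called lower and 0.629% called higher. Of 15 Purkinje cell markers, 8 were called lower and none higher, with a median log2 fold change of -0.50, and their summed level was 9166 to 11080 CPM in KI and 13920 to 15740 CPM in WT. This list shares Itpr1 and Ppp1r17 with the pathway list. The log2 fold changes of the 15 ran between -1.01 for Rgs8 and 0.09 for Foxp2. Those of Prkg1, Pde5a, Npr1, Npr3, Nos1, Gucy1a1 and Gucy1b1 lay in this range. It also holds the median of all genes tested, 0.01, so lying in it does not point to a cell type. Of 10 markers of mural cells, which also use cGMP signalling, none was called, with a median of -0.08 and a summed level of 267.1 to 312.8 CPM in KI and 291.0 to 337.6 CPM in WT. Of 6 endothelial markers 1 was called lower (median -0.16, summed 237.2 to 252.9 CPM in KI and 280.6 to 299.3 CPM in WT). Of 8 markers of Bergmann glia and astrocytes 4 were called lower (median -0.40, summed 3261 to 3781 CPM in KI and 4420 to 4572 CPM in WT). Of 10 granule neuron markers 2 were called lower (median -0.17, summed 3982 to 4752 CPM in KI and 5017 to 5491 CPM in WT). Of 8 markers of molecular layer interneurons none was called (median -0.21), and their summed level was 1972 to 2188 CPM in KI and 2275 to 2405 CPM in WT. These neurons are the known sites of Nos1. Of 7 markers of unipolar brush and deep nuclear neurons none was called (median 0.18), and 2 were higher without overlap. Among these, Tbr1 had only 16 to 32 counts. The summed level of the 7 was 199.5, 95.9 and 148.8 CPM in KI and 120.3, 138.9 and 158.8 CPM in WT, lowest in KI replicate 2. Lower without overlap were 11 Purkinje cell, 5 Bergmann glia and astrocyte, 4 interneuron, 3 granule neuron, 3 endothelial, 2 mural, 2 oligodendrocyte and 1 microglial markers. Higher without overlap were also 1 oligodendrocyte and 2 brainstem markers. Over all genes tested 11.5% were lower and 12.3% higher in this way. None of 6 microglial and 6 meningeal markers was called (medians 0.00 and -0.04), and of 8 oligodendrocyte markers 1 was called lower and 1 higher (median 0.04). The part of these cell types in the values of the 10 genes was not tested.

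Brainstem markers set KI replicate 2 apart from the other KI libraries. Of 14 such markers 6 could be tested and none was called, and 1 had under 10 counts in every library. Their summed level was 67.9, 14.3 and 43.2 CPM in KI replicates 1, 2 and 3 and 15.95, 21.9 and 17.7 CPM in WT. Their mean log2 CPM in KI replicate 2, -0.17, lay within the WT range of -1.34 to 0.22, and it was 2.34 and 1.65 in the other KI libraries. Single markers differed. In KI replicate 2, Slc6a2 and Tph2 had 3.01 and 1.556 CPM, above every WT library (at most 2.39 and 1.496 CPM). Slc6a4, Dbh and Hoxb3 lay within the WT range there, and Th, at 7.36 CPM, lay below it. In KI replicate 2 alone, the log2 fold changes against WT were -1.40 for Ostn, -0.50 for Npr1, -0.75 for Prkg1 and -0.57 for Pde5a, with the spread between replicates taken from WT alone. Only 23 genes in all were called with this single KI library, so that none of the set was called says little. Npr3 came to -2.15 and Nos1 to -0.06 in that library. With the mean log2 CPM of the brainstem markers as a covariate, which is in part confounded with genotype, Ostn came to -1.22, Npr1 to -0.61, Prkg1 to -0.85 and Pde5a to -0.60, with none called and 3 genes called in all.

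How many of the 4 genes passed rested on single libraries. Prkg1 alone was called without KI replicate 1, without KI replicate 3 and without WT replicate 1. Prkg1 and Pde5a were called without WT replicate 3, and these with Ostn without WT replicate 2. All 4 and Nos1 were called without KI replicate 2, where Ostn came to -2.80. Of the pathway list, no gene was called without KI replicate 1, KI replicate 3, WT replicate 1 or WT replicate 2, 1 without WT replicate 3 and 8 without KI replicate 2. All 4 genes kept a negative log2 fold change in each of these fits. Since every KI library lay below every WT library for them, leaving 1 out could hardly change the sign.

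**Figure D5:**
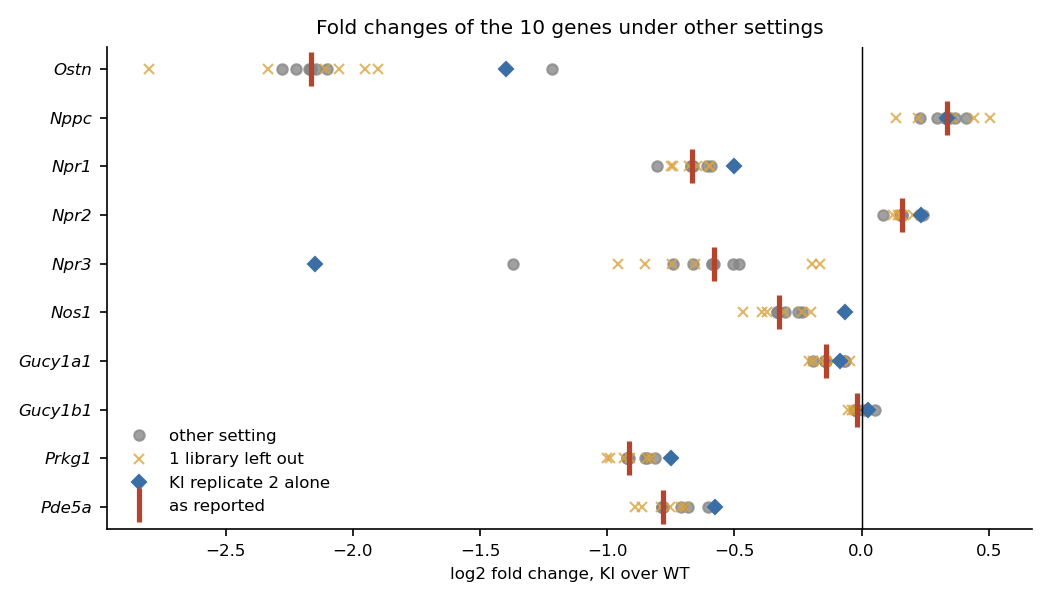
Log2 fold changes, KI over WT, of the 10 genes as reported (red bars), under other scalings, filters, tests and corrections (grey points), with 1 library left out (crosses) and with KI replicate 2 as the only KI library (blue diamonds). Ostn ranges from -2.80 to -1.22 and Prkg1 from -1.0 to -0.75, and Gucy1b1 lies on both sides of 0.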

How the data were processed

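Gene-level counts of poly(A) RNA from mouse cerebellum were compared between 3 KI and 3 WT samples. The authors deposited raw, whole-number read counts for each Ensembl gene. Per the submitters' processing notes, TopHat2 2.0.14, Bowtie2 2.1.0, HTSeq 0.6.1 and bcl2fastq 2.17.1.14 were used, on build mm10. Which annotation release was counted, and whether by strand, is not stated there. The library kit was stranded, per the labels' protocols. GENCODE M21 gave symbols, places and exon lengths for 48349 of 48709 identifiers.

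The test, in R 4.3.3, was edgeR 4.0.16: filterByExpr (minimum count 10, minimum total 15), TMM, quasi-likelihood F test on genotype alone, Benjamini-Hochberg adjustment over all 16699 genes, threshold 0.05. The SE of a log2 fold change is its size divided by the square root of F. Log2 CPM used a prior count of 2. The 10 genes, the pathway and marker lists and the alternatives were chosen with earlier results of these data known, and the ratios once their values had been seen. The text names the 10 genes, each called pathway gene, the most abundant gene per length of a role without a call, and the 5 genes most like Ostn, and others chosen after their values were seen. On simulated counts of this comparison (16453 genes run, 100 changed by 1.5-fold and 100 by 2-fold), 73% and 89% were called. Unchanged genes made up 8.99% of calls, more than the threshold of 0.05 aims at. The changed genes had a mean of at least 1 CPM, and noise was drawn separately for each gene. Differences that many genes of a library share were not simulated, so these rates may not hold for the real libraries. Libraries of a group differed by more than sampling noise (chi-square per degree of freedom of at least 14.01), so each counted as 1 sample. Alternatives used DESeq2 1.42.0, limma 3.58.1, other scalings, filters and covariates, the replicate number as a block, each library left out, and GC and length offsets.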

Additional observations from a re-analysis of the deposited data

How the results depend on the processing

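Against 4 of the 10 genes called, 5 were called with no low-count filter and with the replicate block, and 4 with DESeq2, limma-voom, both other scalings, the 1 CPM filter and the GC and length offsets. The count was 0 with the brainstem covariate and 0 with KI replicate 2 alone, a setting added after seeing the data, and 1 to 5 with 1 library left out. Pathway genes called, 5 as reported, were 10 with no low-count filter, 9 with DESeq2, 12 with the replicate block, 0 with the brainstem covariate, 0 with KI replicate 2 alone, and 0 to 8 with 1 library left out. All genes called, 318 as reported, were 513 with library size alone (190 lower and 323 higher, against 213 and 105), 1303 with no low-count filter, 908 with DESeq2, 2034 with the replicate block, 757 with the GC and length offsets, 3 with the brainstem covariate, 23 with KI replicate 2 alone, and 39 to 858 with 1 library left out. Without KI replicate 2 the count was 858, and without any other single library it was 39 to 89, so the number of samples alone does not set it. The cause was not tested.

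Deviations from the group means correlated at 0.00, 0.17 and 0.32 for the 3 same-numbered pairs. For differently numbered pairs they correlated between -0.29 and 0.10. These values are too few to decide whether equal replicate numbers pair the samples, so the block was kept as an alternative only. Ostn, Npr1, Prkg1 and Pde5a stayed negative under all 16 alternatives and were called in 10, 9, 14 and 11. Ostn ranged from -2.80 to -1.22, Npr1 from -0.80 to -0.50, Prkg1 from -1.0 to -0.75 and Pde5a from -0.89 to -0.57. Kcnma1 was called in 10, and Corin, Asl, Itpr1 and Pde9a in 9 each, with the reported direction in all 16. For all these genes the KI and WT libraries did not overlap, so fits on fewer libraries could hardly change the sign. Ide passed in 3. Directions turned for genes not called: Prkg2, reported at 0.13, came to -1.16 with the brainstem covariate, -0.97 with KI replicate 2 alone, and -0.48 to 0.47 with 1 library left out, and Gucy2e, reported at -0.08, ranged from -0.17 to 0.03 (0.031 without KI replicate 3) with 1 library left out. Depth limits Ostn and Npr3, with as few as 21 and 23 counts in a library, and several pathway genes with fewer, among them Nos2 at 17, Pde2a at 13, Gucy2f at 8 and Pde6g at 4.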
